A study of Mus musculus with 6 samples.

Results

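The transcriptome of a mouse induced pluripotent stem clone with low Oct4 was set against that of mouse embryonic stem cells. The comparison rests on 4 of the 6 arrays of the series: the 2 arrays of the clone and the 2 arrays of the ES cells, identified by the names of their signal columns. Of the 28898 gene names in the deposited table, 12638 had a probe with a detection p under 0.05 on 2 or more of all 6 arrays, and these genes were tested. Just inside that rule, 817 genes were detected on exactly 2 arrays, with a median intensity of 97.9. Just outside it, 1334 names were detected on exactly 1 array, with a median intensity of 94.3.

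The clone, called low iPS here, is an iPS-/- line that the labels name PB-Oct4.2A.cherry with the addition (low) and the clone name cl2.5. By that name its construct joins Oct4 to cherry, a red fluorescent protein. A further line, called iPS here, is labelled PB-Oct4.2A.cherry iPS-/- and enters only as context and through the shared estimate of spread. The ES cells carry no construct in the labels. The strain is given as B6 for all 3 kinds of cell, and the gene that the sign -/- refers to is not named. All cells grew in knockout serum replacement medium with the cytokine LIF and the kinase inhibitors CHIR99021 (3 µM) and PD0325901 (1 µM). Each kind of cell is represented by 1 line, and low iPS is 1 clone, so differences between these lines need not be differences between kinds of cell.

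Oct4, encoded by Pou5f1, is a POU-family transcription factor without which neither the inner cell mass nor ES cells keep their pluripotent state. It binds DNA next to Sox2 and works in a network with Nanog, Esrrb and the Klf factors. CHIR99021 inhibits the kinase GSK3 and so stabilises beta-catenin, PD0325901 inhibits the kinases MEK1 and MEK2 upstream of ERK, and LIF activates STAT3. Together they hold mouse cells in the naive state of the early epiblast.

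Median bead intensity was 96 and 90.5 on the low iPS arrays, against 87.3 and 91.5 on the ES arrays, and 35.9% to 37.6% of probes were detected on each of the 6 arrays. Across genes, the 2 low iPS arrays correlated at r = 0.989 and the 2 ES arrays at 0.981, while arrays of low iPS and ES correlated at 0.956 to 0.972. Genes are not independent replicates, so these are descriptions. All 12 markers of pluripotent cells were detected on both arrays of each line. Of 13 fibroblast and feeder markers, 8 were detected on neither low iPS array and 7 on neither ES array, among them Col1a1, Col3a1, Postn, Lum and Dcn. In samples of many cells, fewer cells of a type and less RNA per cell cannot be told apart.

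Of the 12638 genes, 526 (4.16%) passed the threshold of an adjusted p under 0.05 in a limma fit of all 6 arrays. They comprised 285 genes higher in low iPS (2.26%) and 241 lower (1.91%). At an unadjusted p under 0.05 limma gave 1191 of the 12638 genes higher and 1276 lower, against which such counts for single lists are to be read. Each change given is the mean normalised log2 intensity of low iPS minus that of ES, with the SE of the fit (n = 2 arrays per line). The median change over all genes was -0.02, and the 5th and 95th percentiles were -0.78 and 0.81. The median was 1.5 among the genes that rose and -1.52 among those that fell, and the smallest change that passed was 0.82 in size. Changes above 2 on the log2 scale were found for 84 of the genes that rose, and changes below -2 for 43 of those that fell. With so few arrays the counts depend on single ones: without replicate 1 of low iPS they were 63 higher and 60 lower, without its replicate 2 they were 32 and 23, and without replicate 2 of ES they were 108 and 67. Of 120 genes that passed and were followed through the alternatives, 29 also passed under each alternative that tested them. These include Pou5f1, Otx2, Ly6a, Ly6e, Actn2, Fbp2, Gpat3, Pcyt1b, Sox11, Evc2 and Fah, which all 15 alternatives tested. Klra1 and Olig1 are also among them, but only 13 of the 15 alternatives tested them. Each was detected only on the 2 arrays of its brighter line, so a fit without 1 of those arrays left it out. P-values rest on how far samples of 1 line differ, and the design text of the series calls these biological replicates. Arrays of low iPS and ES did not overlap for 50.5% of all genes tested, 23.5% higher and 27% lower in low iPS, so a lack of overlap sets no gene apart by itself.

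**Figure D1:**
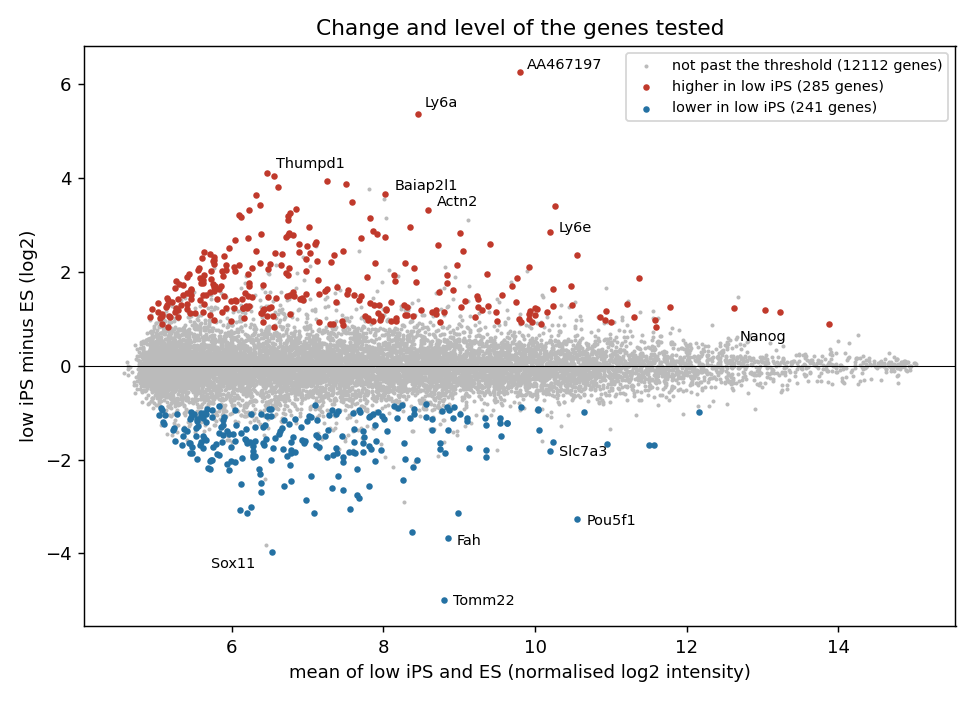
Change (low iPS minus ES, log2) against mean normalised log2 intensity over the 2 lines, 1 point per gene, for the 12638 genes tested. Red points are the 285 genes higher in low iPS and blue points the 241 lower, at a limma adjusted p under 0.05, while Nanog lies among the grey points that did not pass.

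Oct4 itself was lower in the clone. Pou5f1 had intensities of 592.8 and 538.1 in low iPS, 1836.5 and 2150.1 in iPS, and 4584.0 and 5054.2 in ES. It fell by 3.27 ± 0.17 on the log2 scale (limma adjusted p = 0.000616), and the other detected probe of Pou5f1 gave -3.12. Both low iPS arrays lay below the iPS arrays and these below the ES arrays. Whether the probes read the Oct4 of the construct, of the genome or of both was not tested.

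Core pluripotency factors other than Oct4 mostly did not pass. Of the 14 tested members of that list, 3 fell and none rose, against 1.91% of all genes lower. The median change was -0.48, and at an unadjusted p under 0.05 limma gave 5 lower and 0 higher. Lin28a, an RNA-binding protein that blocks maturation of the let-7 microRNAs, had 128.9 and 99.9 in low iPS against 211.3 and 186.4 in ES. It fell by 1.58 ± 0.28 (limma adjusted p = 0.0282), while its other detected probes gave -0.91 and -0.78. Nanog had 7822.5 and 7389.9 in low iPS, 4217.2 and 6629.7 in iPS, and 5913.1 and 5230.1 in ES, a change of 0.37 ± 0.22 that did not pass. Sox2, the DNA-binding partner of Oct4, changed by 0.42 ± 0.18, which did not pass either. The list's 3 falls became 2 or 1 without an array of low iPS, and 2 or 1 without an array of ES.

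No naive pluripotency factor passed: of 13 tested, limma gave 0 higher and 0 lower, with 3 and 1 at an unadjusted p under 0.05 and a median change of -0.01. Esrrb, an orphan nuclear receptor of the naive network, had 7210.9 and 7559.4 in low iPS against 9432.2 and 9194.5 in ES, a change of -0.42 ± 0.17. Klf4 changed by -0.12 ± 0.25, Tfcp2l1 by 0.57 ± 0.28 and Zfp42, the gene of Rex1, by -0.57 ± 0.31. The widest difference was that of Dppa3, a maternal factor also found in naive cells and germ cells. Dppa3 had 655.5 and 1482.2 in low iPS, 124.8 and 222.0 in iPS, and 235.2 and 103.6 in ES. Its change of 3.55 ± 0.79 just missed the threshold (limma adjusted p = 0.055), although the low iPS arrays did not overlap the ES arrays. Among reported Oct4 targets, 26 were tested and 3 fell, with Pou5f1 itself and Phc1 among them, against 1.91% of all genes lower. Phc1, a subunit of Polycomb repressive complex 1, had 1437.3 and 1032.4 in low iPS, 2953.7 and 3266.3 in iPS, and 3765.7 and 3562.9 in ES, and fell by 1.68 ± 0.21 (limma adjusted p = 0.00884). Lefty1, a secreted inhibitor of Nodal on the same list, had 122.6 and 331.0 in low iPS against 705.4 and 1251.6 in ES, and its change of -2.92 ± 0.69 did not pass (limma adjusted p = 0.0655).

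Transcription factors of later cell fates were among the genes that moved. Otx2, which accompanies the passage from the naive to the formative epiblast, had 636.9 and 598.0 in low iPS, 140.6 and 172.5 in iPS, and 167.5 and 138.5 in ES. It rose by 2.72 ± 0.25 (limma adjusted p = 0.00287), with low iPS apart from both other lines. Of the 9 tested epiblast and formative factors, Otx2 alone rose and Sox4 alone fell, by 1.92 ± 0.27. The shares over all genes were 2.26% higher and 1.91% lower. Gsc, the homeobox gene goosecoid of the gastrula organiser, had 664.6 and 796.6 in low iPS against 201.1 and 133.9 in ES, and rose by 2.82 ± 0.41 (limma adjusted p = 0.0144). It was the one of 7 tested streak and mesoderm genes to pass, and T, the gene brachyury, was detected on none of the 6 arrays. Neither Gsc nor Sox4 passed without either one of the low iPS arrays.

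Of 11 tested extraembryonic endoderm genes, 2 rose and none fell, against 2.26% of all genes higher. Gata6, a transcription factor that specifies primitive endoderm, had 457.0 and 275.7 in low iPS, 122.1 and 149.4 in iPS, and 111.6 and 145.0 in ES. It rose by 2.28 ± 0.33 (limma adjusted p = 0.0146). Dab2, an endocytic adaptor of that tissue, had 299.6 and 213.2 in low iPS against 98.0 and 117.6 in ES and rose by 2.18 ± 0.29 (limma adjusted p = 0.0105), while its other detected probes gave 0.41 and 2.77. Neither gene passed without replicate 1 of low iPS or without the detection filter. Of 10 markers of this tissue, 5 were detected on no array of either line, namely Gata4, Sox17, Foxa2, Lamb1 and Afp, and the summed intensity of the 10 was 1553 to 1955 in low iPS against 1057 to 1413 in ES. Of 12 trophectoderm genes, Tfap2a, an AP-2 transcription factor, was the one to pass. It had 255.5 and 296.2 in low iPS, 208.3 and 247.5 in iPS, and 135.4 and 158.0 in ES. Tfap2a rose by 1.40 ± 0.20 (limma adjusted p = 0.0145), while its other detected probe gave 0.59. It did not pass when either array of low iPS was left out. The median change of the 12 was 0.80, and at an unadjusted p under 0.05 limma gave 5 higher and 0 lower. Elf5 and Hand1 were undetected in all 3 lines. The 7 markers summed to 902 to 923 in low iPS, 865 to 867 in iPS and 656 to 709 in ES, so iPS lay above ES too. Whether cells of these types contribute to the values was not tested.

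Neural and neuroendocrine genes gave several of the deepest falls. Sox11, a transcription factor of neural progenitors, had 88.6 and 85.2 in low iPS, 136.6 and 120.3 in iPS, and 375.9 and 537.5 in ES. Its probe was detected on neither low iPS array, so only a bound can be given under the background correction used: it was at least 10.9-fold lower in low iPS (limma adjusted p = 0.00131; 5.14-fold with no background correction). The other detected probe of Sox11 gave -2.01 on the log2 scale, a smaller fall than that bound. In such a bound the brighter line enters with its mean. Each array of the dimmer line enters with the probe's own signal or with the lowest signal among detected probes, whichever is higher. These bounds hold for the probe used and for that correction alone: with none, all 26 genes followed that have a bound gave a smaller fold, which stands beside each one named. Olig1, a basic helix-loop-helix factor of oligodendrocyte precursors, had 93.4 and 87.5 in low iPS, 88.0 and 85.8 in iPS, and 292.4 and 297.8 in ES, and was at least 6.51-fold lower (limma adjusted p = 0.000616; 3.26-fold with no background correction). Sox21, which acts against SoxB1 factors in neural cells, went the other way and rose by 1.28 ± 0.24, with a second probe at 0.60. These 3 are the members that passed among 4 tested of 18 neural transcription factors in the table, against 4.16% of all genes in either direction. Sox1 and Pax6 were undetected in all 3 lines. The 5 neural markers summed to 573 to 602 in low iPS, 439 to 486 in iPS and 684 to 746 in ES.

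Among 6 tested genes of neuropeptides and peptide hormones, 2 fell and none rose, against 1.91% of all genes lower, and the median change was 0.04. Trh, which encodes thyrotropin-releasing hormone, had 300.5 and 202.8 in low iPS, 808.2 and 398.1 in iPS, and 1286.0 and 1983.3 in ES. It fell by 3.13 ± 0.46 (limma adjusted p = 0.0149). Calca, which encodes calcitonin and the peptide CGRP, had 132.5 and 142.3 in low iPS, 161.3 and 184.2 in iPS, and 463.5 and 858.8 in ES. It fell by 3.05 ± 0.30 (limma adjusted p = 0.00429), and its 3 other probes gave -0.94, -2.38 and -1.27. Both genes had their highest values in ES, and the other 4 tested peptide genes, 3 with changes above 0, did not pass. The 2 falls became 1 without either array of low iPS or without replicate 2 of ES.

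**Figure D2:**
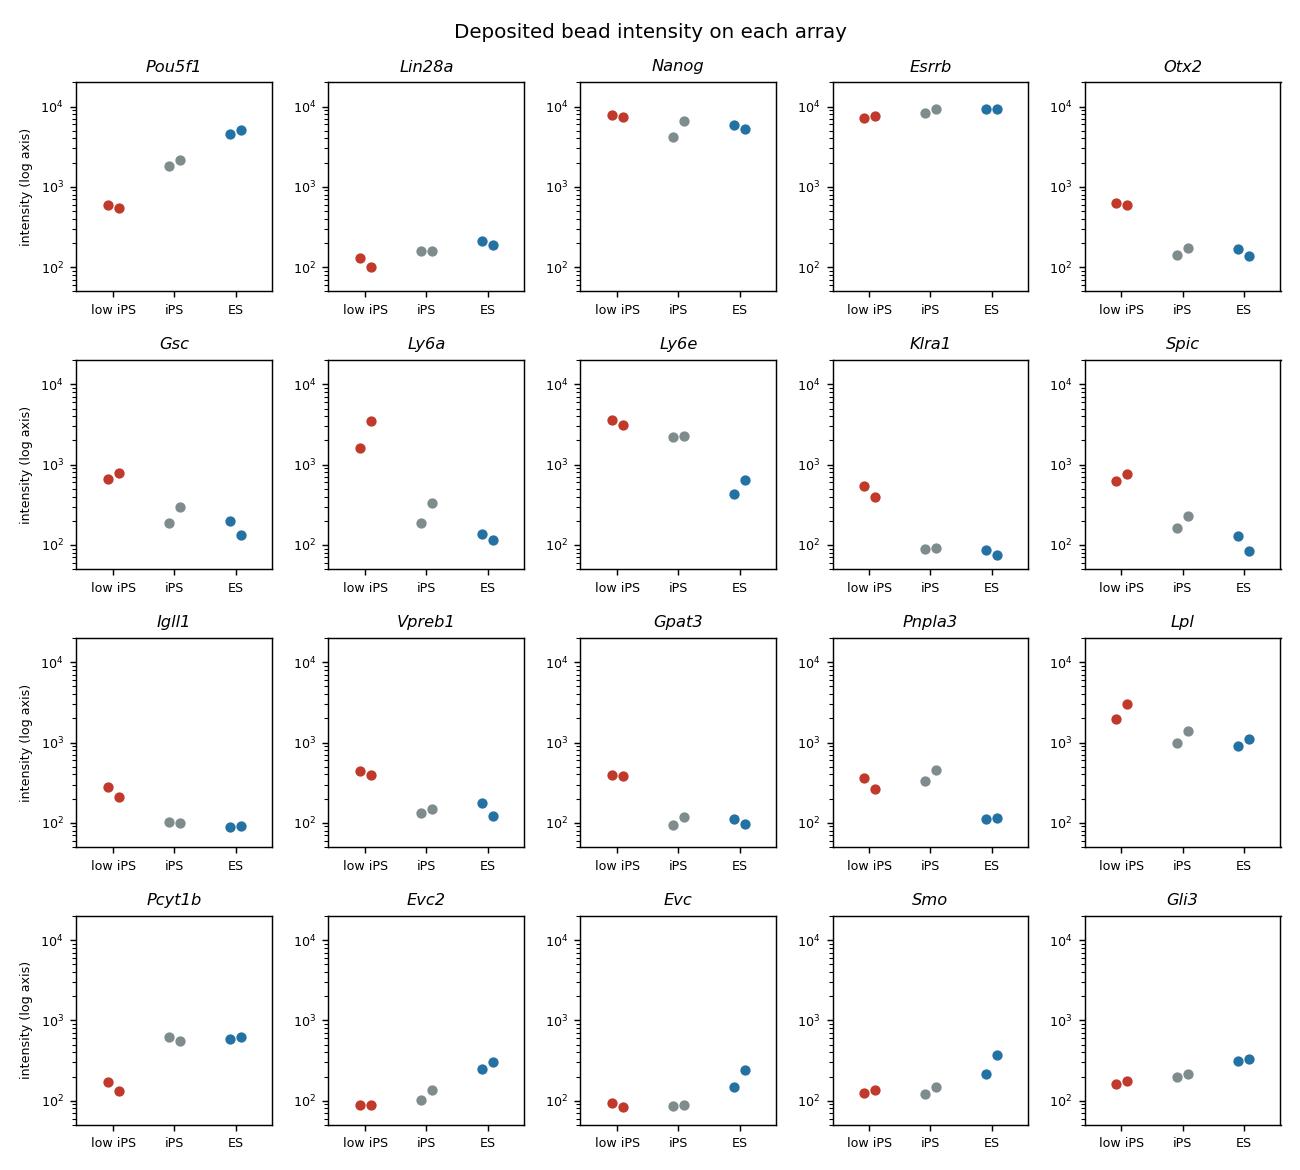
Deposited bead intensity (log axis) of 20 genes on each of the 6 arrays, 1 point per array, with low iPS in red, iPS in grey and ES in blue. Pou5f1 is lowest in low iPS, intermediate in iPS and highest in ES. The low iPS points of Nanog (7822.5 and 7389.9) lie above those of ES.

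Some genes best known from blood and lymphoid cells rose. Of 21 members of that list in the table, 9 were tested. Of these, 5 rose and none fell, with a median change of 1.98, against 2.26% of all genes higher. The list was chosen with earlier results of these data known, and Klra1 entered the test through low iPS alone. The count is thus a description. Klra1, a Ly49-family receptor of natural killer cells, had 549.1 and 391.2 in low iPS, 90.2 and 92.7 in iPS, and 86.5 and 75.8 in ES, where it was not detected. It was at least 11.5-fold higher in low iPS (limma adjusted p = 0.000616; 5.50-fold with no background correction). The other detected probe of Klra1 gave 3.12 on the log2 scale, a smaller rise than that bound. Spic, an Ets transcription factor of red pulp macrophages, had 619.5 and 754.5 in low iPS, 163.9 and 231.3 in iPS, and 131.1 and 85.2 in ES. It rose by 3.94 ± 0.45 (limma adjusted p = 0.00695).

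Igll1 and Vpreb1 encode the 2 chains of the surrogate light chain, the partner of the heavy chain in pre-B cells. Igll1 had 281.9 and 208.5 in low iPS, 101.5 and 99.6 in iPS, and 88.0 and 90.7 in ES, and was at least 5.0-fold higher (limma adjusted p = 0.00239; 2.6-fold with no background correction). Vpreb1 had 437.5 and 392.4 in low iPS, 133.4 and 150.4 in iPS, and 176.4 and 121.1 in ES, and rose by 2.20 ± 0.36 (limma adjusted p = 0.0205). For both genes the low iPS arrays stood above the iPS and ES arrays, which lay close together. Cd3g, a chain of the T cell receptor complex, had 195.7 and 160.7 in low iPS, 410.5 and 403.2 in iPS, and 112.3 and 81.1 in ES. It rose by 1.70 ± 0.35 (limma adjusted p = 0.0423), with iPS the brightest line. Defining blood markers did not accompany them: Ptprc, which encodes CD45, and Cd34 and Tyrobp were detected on no array of any line. The 6 blood markers summed to 3779 to 4497 in low iPS, 7322 to 7670 in iPS and 4842 to 5452 in ES. The other markers in these sums are Laptm5, Cd3d and Cd3g, and whether they reflect blood cells was not tested. The count of 5 rises became 2 and 1 without replicates 1 and 2 of low iPS, and 6 and 4 without replicates 1 and 2 of ES.

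Surface antigens of the Ly6 family, small proteins held in the membrane by a lipid anchor, gave the largest rise among genes with ordinary names. Ly6a, known as Sca-1 on blood stem cells, had 1629.6 and 3508.2 in low iPS, 186.2 and 329.4 in iPS, and 135.4 and 114.3 in ES. It rose by 5.36 ± 0.47 (limma adjusted p = 0.00242). Ly6e, a broadly expressed member that marks immature thymocytes, had 3613.1 and 3142.6 in low iPS, 2184.0 and 2279.3 in iPS, and 431.5 and 637.8 in ES, and rose by 2.84 ± 0.22 (limma adjusted p = 0.00205). Ly6g6e had 1392.4 and 1312.8 in low iPS, 369.2 and 592.8 in iPS, and 343.3 and 268.9 in ES, and rose by 2.45 ± 0.27. The 3 genes differ in the iPS line: it was near low iPS for Ly6e, and nearer ES for Ly6a and Ly6g6e. Cd59a, an inhibitor of the complement membrane attack complex, fell by 1.04 ± 0.21 (limma adjusted p = 0.0401). In all, 3 of the 10 tested members rose and 1 fell, against 2.26% of all genes higher and 1.91% lower. The 3 rises were kept without any array except replicate 2 of low iPS, which left 2, and the fall of Cd59a was lost without an array of low iPS or of iPS or replicate 2 of ES.

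Enzymes of glycerolipid metabolism rose and fell. Triglycerides and phospholipids are built from glycerol phosphate by a chain of acyltransferases, and lipases release the fatty acids again. Of 31 tested members, 7 rose and 2 fell, against 4.16% of all genes in either direction, and the median change was 0.00. Gpat3, an acyltransferase of the first step, had 391.9 and 388.3 in low iPS, 95.1 and 119.1 in iPS, and 111.3 and 96.4 in ES. It rose by 3.11 ± 0.29 (limma adjusted p = 0.00306). Agpat2, of the step after it, had 716.8 and 676.3 in low iPS against 402.7 and 326.3 in ES and rose by 1.11 ± 0.21 (limma adjusted p = 0.0333). The other tested genes of these 2 enzyme families did not pass, with changes of -0.19 for Gpat4, 0.17 for Agpat1, -0.74 for Agpat3, 0.28 for Agpat4 and 0.00 for Agpat5. Neither did the diacylglycerol acyltransferase genes of the last step, with -0.34 for Dgat1 and -0.71 for Dgat2.

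Lipases and a droplet protein were among the other rises. Pnpla3, a patatin-like lipase of lipid droplets, had 360.1 and 261.1 in low iPS, 333.5 and 455.9 in iPS, and 110.2 and 116.0 in ES, and rose by 2.37 ± 0.23 (limma adjusted p = 0.00408). Mgll, which cleaves monoglycerides, rose by 1.38 ± 0.25, Plin2, a coat protein of lipid droplets, by 1.34 ± 0.24, and Lpl, which cleaves the triglycerides of lipoproteins, by 1.30 ± 0.26. Lpl had 1986.7 and 3017.1 in low iPS, 983.0 and 1398.9 in iPS, and 904.5 and 1118.6 in ES, so the iPS arrays overlapped those of ES. Pla2g1b, a secreted phospholipase A2, had 250.7 and 122.9 in low iPS, 464.7 and 521.6 in iPS, and 871.0 and 1769.3 in ES, and fell by 3.55 ± 0.53 (limma adjusted p = 0.0151).

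Enzymes of phosphatidylcholine synthesis from choline moved apart from one another. Pcyt1b, an isoform of the enzyme that activates phosphocholine, had 171.6 and 130.4 in low iPS, 623.7 and 559.4 in iPS, and 587.2 and 625.5 in ES. It fell by 2.75 ± 0.25 (limma adjusted p = 0.00265), with a second probe at -2.29. Low iPS was the line apart, and iPS and ES overlapped. Chpt1, which completes the lipid, had 584.9 and 545.7 in low iPS against 240.1 and 309.1 in ES and rose by 1.30 ± 0.20 (limma adjusted p = 0.0176). Pcyt1a, the other isoform, changed by -0.18, and Chka, the choline kinase, by 1.02 ± 0.24, and neither passed. The list's 7 rises became 2 without either array of low iPS, and 6 and 4 without replicates 1 and 2 of ES, while Gpat3, Pnpla3 and Pcyt1b passed each time.

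Glutathione is the main small thiol of the cell, and glutathione transferases attach it to foreign compounds. In the list of glutathione genes and NRF2 targets, 4 of 29 tested members rose and none fell, against 2.26% of all genes higher, with a median change of 0.32. Gsto1, an omega-class transferase, had 1780.5 and 762.1 in low iPS, 469.3 and 407.1 in iPS, and 342.8 and 288.4 in ES, and rose by 2.15 ± 0.40 (limma adjusted p = 0.0326). Gstm2, a mu-class transferase, rose by 1.87 ± 0.37, Gpx2, a glutathione peroxidase, by 1.52 ± 0.23, and Gss, the enzyme that completes glutathione, by 1.29 ± 0.21. Gpx2 had 1538.3 and 1264.4 in low iPS, 387.6 and 537.1 in iPS, and 583.6 and 490.5 in ES, so that iPS lay with ES. Of the NRF2 targets outside glutathione use, Nqo1 changed by 0.81, Hmox1 by -0.41 and Srxn1 by 0.54, and none of them passed. The 4 rises became 0 and 1 without replicates 1 and 2 of low iPS, and 0 without replicate 2 of ES.

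Hedgehog signalling runs in vertebrates through the primary cilium, where Smo relays the signal to the Gli factors and the Evc and Evc2 proteins act at the base of the cilium. Of the 12 tested genes of this list, 4 fell and none rose, against 1.91% of all genes lower, and the median change was -0.47. Evc2 had 88.3 and 87.2 in low iPS, 101.5 and 135.7 in iPS, and 247.5 and 305.6 in ES, and was at least 5.94-fold lower in low iPS (limma adjusted p = 0.0025; 3.14-fold with no background correction). Evc had 94.8 and 83.8 in low iPS, 85.9 and 88.1 in iPS, and 147.1 and 238.4 in ES, and was at least 3.37-fold lower (limma adjusted p = 0.0119; 2.12-fold with no background correction). Neither gene was detected in low iPS. Smo, the transmembrane transducer, had 124.7 and 136.6 in low iPS, 122.7 and 150.1 in iPS, and 217.4 and 368.7 in ES, and fell by 1.81 ± 0.32 (limma adjusted p = 0.0271), with a second probe at -0.93. Gli3, the Gli factor that acts mainly as a repressor, had 160.7 and 176.3 in low iPS, 198.3 and 213.8 in iPS, and 312.1 and 334.4 in ES, and fell by 1.36 ± 0.19 (limma adjusted p = 0.0136). For all 4 genes the iPS arrays lay below the ES arrays too. Ptch1, the receptor gene that the pathway itself induces, changed by 0.23 and did not pass. Without an array of low iPS, or without replicate 2 of ES, 1 of the 4 falls was kept.

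Wnt ligands and receptors also fell where they passed, with 3 of 12 lower and none higher, against 1.91% of all genes lower and 2.26% higher. Wnt3a had 109.6 and 102.8 in low iPS, 124.6 and 118.8 in iPS, and 220.9 and 202.6 in ES, and fell by 1.96 ± 0.22 (limma adjusted p = 0.00611). Fzd5, a Frizzled receptor, had 828.9 and 678.5 in low iPS, 1730.5 and 1745.7 in iPS, and 2055.3 and 1600.7 in ES, and fell by 1.36 ± 0.22 (limma adjusted p = 0.0209), with a second probe at -0.56. Lrp6, the co-receptor, fell by 0.92 ± 0.17 with a second probe at -0.46. Among 13 tested targets and inhibitors of the pathway, Notum, a secreted enzyme that inactivates Wnt proteins, rose by 1.59 ± 0.34. Dkk3, of the Dickkopf family, fell by 1.28 ± 0.26. The 3 falls of ligands and receptors became 1 and 0 without replicates 1 and 2 of low iPS, and 1 and 2 without replicates 1 and 2 of ES.

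All 12 tested genes of ERK feedback and early response had a fitted change below 0, as had 6637 of all 12638 genes. The median of the 12 was -1.0 against -0.02 over all genes. Only Spred1 of the 12 passed, against 1.91% of all genes lower. Spred1, an inhibitor of Ras and ERK signalling, had 225.2 and 176.1 in low iPS, 376.6 and 391.1 in iPS, and 380.1 and 530.9 in ES, and fell by 1.53 ± 0.24 (limma adjusted p = 0.0176). It did not pass without either array of low iPS or without replicate 2 of ES, and 6 of the 12 were lower at an unadjusted p under 0.05. Of all 12638 genes, 1276 were lower at that unadjusted limma p. Dusp6, the ERK phosphatase, had 377.2 and 228.7 in low iPS, 836.9 and 355.1 in iPS, and 1130.6 and 742.6 in ES, a change of -1.93 ± 0.55 that did not pass (limma adjusted p = 0.109). Etv4, an Ets factor induced by FGF signalling, changed by -1.36 ± 0.37 (limma adjusted p = 0.0946). The replicates of Dusp6 spread widely within each line, and its iPS arrays overlapped both other lines in part. In the LIF and STAT3 pathway, 1 of 13 tested genes passed, against 4.16% of all genes in either direction. Jak1, the kinase that LIF receptors act through, had 168.6 and 154.5 in low iPS, 259.2 and 370.9 in iPS, and 286.4 and 381.9 in ES, and fell by 1.49 ± 0.23 (limma adjusted p = 0.0168). Over the 15 alternatives the change of Jak1 ran from -1.69 to -1.02, and it did not pass in all of them.

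**Figure D3:**
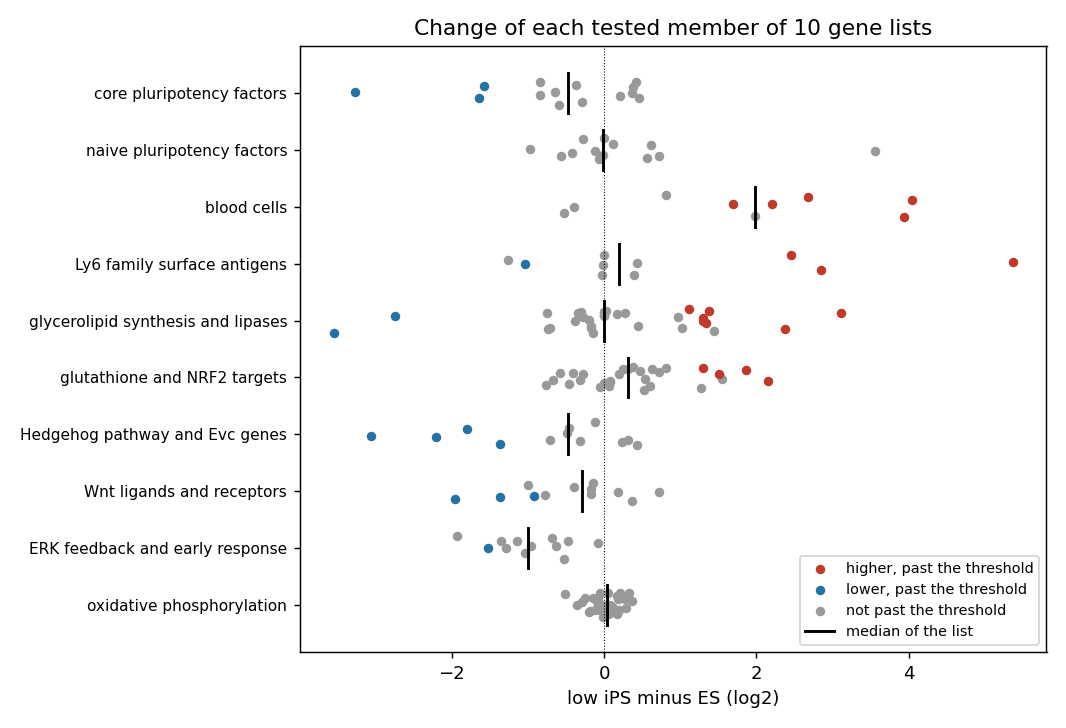
Change (low iPS minus ES, log2) of each tested member of 10 gene lists, 1 point per gene, with the median of each list as a black line. Members past the threshold are red where higher and blue where lower. The 12 genes of ERK feedback all lie below 0, the 39 genes of oxidative phosphorylation between -0.52 and 0.37.

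Proteins that link actin filaments to membranes and to one another moved both ways, 3 of 25 tested members up and 3 down. The shares over all genes were 2.26% higher and 1.91% lower. Baiap2l1, which bends membranes at actin-rich protrusions, had 1041.5 and 1007.3 in low iPS, 1154.1 and 1389.1 in iPS, and 125.2 and 166.4 in ES, and rose by 3.66 ± 0.23 (limma adjusted p = 0.000772). Actn2, the alpha-actinin of striated muscle, had 1092.8 and 1597.3 in low iPS, 178.9 and 210.3 in iPS, and 180.8 and 206.8 in ES, and rose by 3.33 ± 0.24 (limma adjusted p = 0.0015). Pdlim4, a PDZ and LIM domain protein of stress fibres, rose by 3.49 ± 0.47. Baiap2l1 was thus high in both iPS lines, and Actn2 in low iPS alone of the 3 lines. Zyx, which encodes zyxin of focal adhesions, had 451.6 and 405.0 in low iPS, 1424.7 and 1116.4 in iPS, and 946.7 and 1815.1 in ES, and fell by 1.79 ± 0.32 (limma adjusted p = 0.0288). Flna, the crosslinker filamin A, fell by 1.27 ± 0.23. Actn3, the alpha-actinin of fast muscle fibres, was at least 1.86-fold lower (limma adjusted p = 0.0396; 1.33-fold with no background correction, where it did not pass). The 3 falls became 0 without either array of low iPS or without replicate 2 of ES, while the 3 rises became 2 without replicate 2 of low iPS and stayed at 3 without any other single array.

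Among genes of the cell surface and matrix, 1 of 12 tested integrins rose and 1 fell. Of 16 matrix proteases and inhibitors 1 rose and 2 fell, against 2.26% of all genes higher and 1.91% lower. None of 19 genes of basement membrane and matrix passed in the limma fit (6 higher and 0 lower at an unadjusted p under 0.05). Itga1, the alpha subunit of a collagen receptor, was at least 1.79-fold higher (limma adjusted p = 0.00884; 1.53-fold with no background correction), and Itga5, that of the fibronectin receptor, fell by 1.08 ± 0.18. The matrix metalloproteinase genes Mmp2 and Mmp14, of which the second activates the product of the first, fell by 1.90 ± 0.34 and 1.86 ± 0.18. Adamts9, a secreted protease that cleaves proteoglycans, was at least 2.07-fold higher (limma adjusted p = 0.00884; 1.59-fold with no background correction), though a second probe gave -0.38. Without replicate 2 of low iPS none of these 3 protease genes passed. Mmp14 had 177.4 and 174.1 in low iPS, 145.6 and 147.0 in iPS, and 426.4 and 498.6 in ES, and so was low in both iPS lines. Fstl1, a secreted glycoprotein also found in fibroblasts, had 124.8 and 109.2 in low iPS, 1159.7 and 926.6 in iPS, and 418.1 and 569.5 in ES. It fell by 3.14 ± 0.25 (limma adjusted p = 0.00215), although its second probe gave -0.99. It was the one of 9 tested fibroblast and feeder genes to pass, and the 13 feeder markers summed to 1230 to 1372 in low iPS against 1230 to 1419 in ES. Acta2, smooth muscle actin, had 86.6 and 86.3 in low iPS against 185.4 and 1036.7 in ES and did not pass (limma adjusted p = 0.0555).

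Among enzymes of amino acid breakdown, 2 of 20 rose and 1 fell, against 2.26% of all genes higher and 1.91% lower. Fah, which carries out the last step of tyrosine breakdown, had 226.9 and 179.7 in low iPS, 503.9 and 601.9 in iPS, and 1269.6 and 2416.4 in ES. It fell by 3.68 ± 0.31 (limma adjusted p = 0.00237), and the 3 lines did not overlap. Nnmt, which uses S-adenosylmethionine to methylate nicotinamide, had 309.4 and 663.8 in low iPS, 123.2 and 254.0 in iPS, and 100.7 and 107.8 in ES, and rose by 3.33 ± 0.57 (limma adjusted p = 0.0241). Bhmt2, which methylates homocysteine, rose by 2.6 ± 0.38. Fbp2, the fructose bisphosphatase of muscle, had 907.2 and 676.1 in low iPS, 183.1 and 228.7 in iPS, and 136.1 and 101.2 in ES, and rose by 3.87 ± 0.37 (limma adjusted p = 0.00321). Pdk1, a kinase that restrains entry of pyruvate into mitochondria, fell by 1.26 ± 0.18. The other 23 of the 25 tested genes of glycolysis did not pass. Nnmt did not pass without replicate 2 of low iPS, nor Bhmt2 without either array of low iPS.

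Of 20 tested transporters of glutamate and neutral amino acids, 1 rose and 2 fell, against 2.26% of all genes higher and 1.91% lower, and none passed when either array of low iPS was left out. Some receptors and enzymes of other lists are given with them. Ffar2, a receptor for short-chain fatty acids, had 348.5 and 348.9 in low iPS, 84.1 and 102.2 in iPS, and 88.2 and 86.2 in ES, and was at least 8.13-fold higher (limma adjusted p = 0.000686; 3.83-fold with no background correction). Slc1a1, a glutamate transporter, was at least 6.26-fold higher (limma adjusted p = 0.00237; 3.31-fold with no background correction), with 2 other probes at 0.11 and 2.48. Adh1, an alcohol dehydrogenase that also oxidises retinol, was at least 6.24-fold higher (limma adjusted p = 0.00668; 3.44-fold with no background correction). These 3 genes were detected on neither ES array. Slc7a3, a carrier of cationic amino acids, had 686.6 and 742.0 in low iPS, 4350.9 and 2550.3 in iPS, and 2673.9 and 1952.5 in ES, and fell by 1.81 ± 0.34 (limma adjusted p = 0.0334), though a second probe gave -0.18. Slc38a5, a glutamine carrier and the other of the 2 falls, was at least 2.19-fold lower (limma adjusted p = 0.0446; 1.74-fold with no background correction, where it did not pass). Atp2a3, a calcium pump of the endoplasmic reticulum, had 155.6 and 129.6 in low iPS, 396.9 and 504.0 in iPS, and 486.5 and 572.3 in ES, and fell by 2.65 ± 0.20 (limma adjusted p = 0.00192).

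Some of the widest differences set both iPS lines apart from ES. Tomm22, a receptor of the mitochondrial outer membrane for imported proteins, had 168.9 and 134.8 in low iPS, 135.7 and 143.3 in iPS, and 2608.4 and 2530.0 in ES. It fell by 4.99 ± 0.21 (limma adjusted p = 0.000452), but its second detected probe gave 0.49, so its 2 probes disagree. Thumpd1, an adaptor for acetylation of transfer RNA, had 456.3 and 429.5 in low iPS, 634.6 and 553.0 in iPS, and 66.1 and 82.5 in ES, and was at least 10.9-fold higher (limma adjusted p = 0.000616; 5.71-fold with no background correction). Ubd, the ubiquitin-like protein FAT10, had 102.8 and 85.1 in low iPS, 82.2 and 91.5 in iPS, and 301.7 and 282.7 in ES, and was at least 6.44-fold lower (limma adjusted p = 0.00128; 3.12-fold with no background correction). For these genes the 2 iPS lines lay close together. The comparisons of low iPS and of iPS with ES share the ES arrays.

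Germ cell and imprinted genes gave a few changes. Rec8 and Stag3 both encode subunits of the meiotic cohesin complex. Rec8 had 395.7 and 415.0 in low iPS, 163.9 and 254.0 in iPS, and 157.3 and 225.8 in ES, and rose by 1.51 ± 0.31 (limma adjusted p = 0.0424). Stag3 had 416.3 and 393.7 in low iPS, 333.9 and 349.5 in iPS, and 757.1 and 850.6 in ES, and fell by 1.12 ± 0.17 (limma adjusted p = 0.0165). The 2 cohesin genes therefore changed in opposite directions. Nanos3, an RNA-binding protein of primordial germ cells, rose by 1.56 ± 0.27. These 3 were the changes among 14 tested germ cell genes, against 4.16% of all genes in either direction. None of the 3 passed without an array of low iPS. Of 22 imprinted genes, Usp29, a paternally expressed deubiquitinase gene, was at least 2.73-fold higher (limma adjusted p = 0.00611; 1.81-fold with no background correction), and Phlda2, a maternally expressed gene that restrains placental growth, fell by 2.04 ± 0.34 (limma adjusted p = 0.0215). The other detected probe of Usp29 gave 1.21 on the log2 scale, a smaller rise than that bound. Over the 15 alternatives the fitted change of Usp29 ran from 0.79 to 1.92 and that of Phlda2 from -2.55 to -1.53. Peg3, of the same list, changed by -0.94 ± 0.21 with a second probe at -0.82, and did not pass (limma adjusted p = 0.0553). The shares over all genes were 2.26% higher and 1.91% lower.

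Several lists of housekeeping and regulatory genes had no member past the threshold. None of 39 genes of oxidative phosphorylation passed in the limma fit (0 higher and 1 lower at an unadjusted p under 0.05), and their changes ran from -0.52 to 0.37. The same held for 24 ATF4 targets (0 and 4 at an unadjusted p under 0.05), 22 genes of G1 control (3 and 2), 21 genes of mitosis (0 and 4), 20 p53 targets (4 and 0) and 26 genes of the lysosome (1 and 2). Among 18 genes of DNA methylation none passed (1 and 6 at an unadjusted p under 0.05), with a median of -0.32, and among 22 genes of cholesterol synthesis none passed (0 and 1), with 18 changes below 0. Over all 12638 genes 4.16% passed in either direction, so a short list with none past the threshold is little apart from all genes. At an unadjusted p under 0.05 limma gave 1191 of all genes higher and 1276 lower. The counts of these lists do not show that their genes were equal in the 2 lines.

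**Figure D4:**
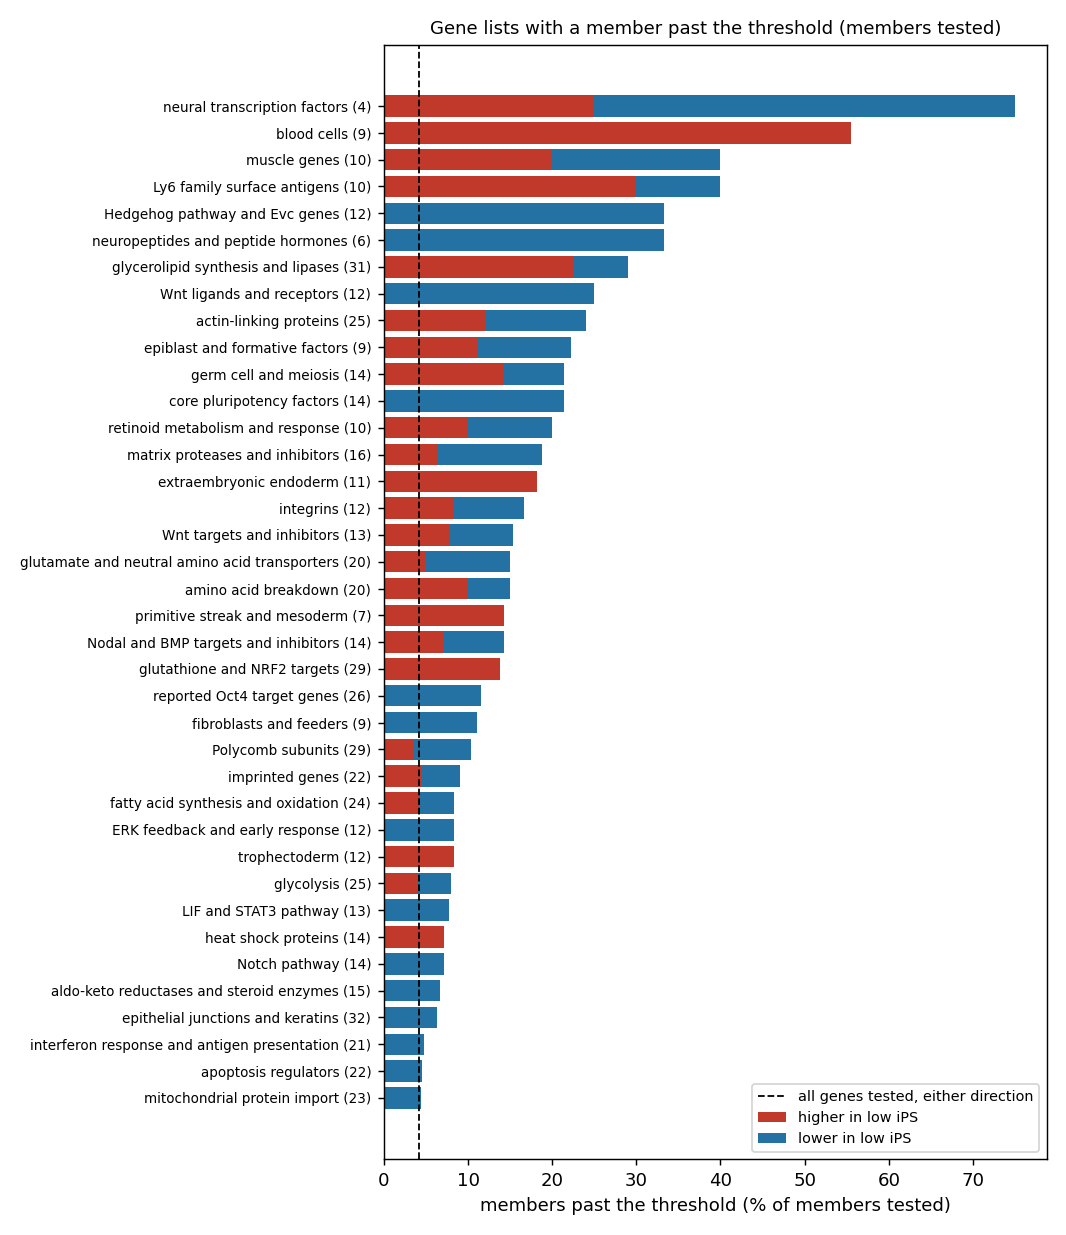
Share of the tested members of each gene list past the threshold, in percent, for the lists with at least 1 such member, with the number tested in brackets. Red is higher and blue lower in low iPS, and the dashed line is the 4.16% of all genes past the threshold in either direction. Short lists, such as the 4 neural transcription factors, move far with each gene.

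Genes that changed lay next to one another in places. In the gene order of the RefSeq annotation of GRCm38.p6, 10532 tested genes and 471 of those past the threshold could be placed. Runs of adjacent tested genes that passed in one direction numbered 28 and held 59 genes. The largest rise of all, that of AA467197, a gene with an accession-like name, belonged to one of them. AA467197 had 7861.2 and 8729.4 in low iPS, 938.8 and 2412.4 in iPS, and 208.2 and 147.9 in ES, and rose by 6.25 ± 0.45 (limma adjusted p = 0.0015). Its neighbour Spata5l1 had 159.0 and 156.1 in low iPS against 87.9 and 103.9 in ES and rose by 1.51 ± 0.24 (limma adjusted p = 0.0182).

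Ly6e and Ly6a were neighbours on chromosome 15, and Igll1 and Vpreb1 on chromosome 16. On chromosome 5, Crmp1, Evc and Evc2 fell together: Crmp1, a mediator of semaphorin signals, had 94.7 and 74.0 in low iPS against 133.8 and 180.2 in ES and was at least 2.5-fold lower (limma adjusted p = 0.0161; 1.88-fold with no background correction). On chromosome 13, Fbp2 stood beside Aopep, an aminopeptidase gene, and Fancc, of the Fanconi anaemia complex, which rose by 1.13 ± 0.23 and 0.93 ± 0.18. On chromosome 9, the organic anion transporter genes Slc22a13 and Slc22a13b rose by 2.04 ± 0.33 and 3.20 ± 0.37, beside Acaa1b, a peroxisomal thiolase gene, at 1.06 ± 0.18. On chromosome 8, Nat1 and Nat2, which encode arylamine acetyltransferases, were at least 5.67-fold higher (limma adjusted p = 0.0025; 2.71-fold with no background correction) and higher by 1.88 ± 0.19. Neighbours that are copies of one another, such as these last, may share signal on their probes, and probe sequences were not used here.

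**Figure D5:**
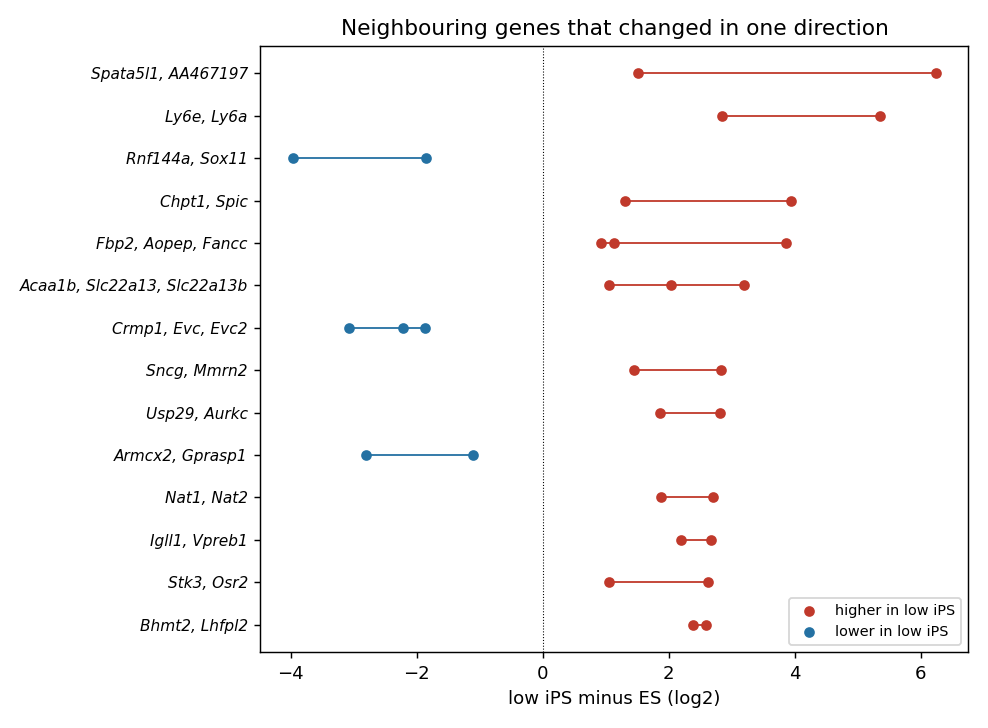
Fitted change (low iPS minus ES, log2) of the genes in the 14 runs of adjacent genes with the widest changes, 1 point per gene and 1 run per line, red where higher and blue where lower. Genes undetected in one line, such as Evc2 or Nat1, have only a bound. Within a run one gene often moved much further than its neighbours, as for AA467197 at 6.25 beside Spata5l1 at 1.51.

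By chromosome, the median change lay between -0.07 and 0.03 on 17 of the 19 numbered chromosomes. On chromosome 6 it was -0.31 over 432 tested genes, of which 6 were higher and 23 lower. On chromosome 8 it was -0.16 over 486 genes, with 13 higher and 10 lower. On the X chromosome it was -0.13 over 319 genes, with 3 higher and 14 lower. The shares over all genes were 2.26% higher and 1.91% lower. In either direction 6.7% of tested genes passed on chromosome 6, 4.7% on chromosome 8 and 5.3% on the X chromosome. Chromosome 8 was thus near the 4.16% of all genes. The iPS line, set against the same ES arrays, had medians of -0.28 on chromosome 6, -0.32 on chromosome 8 and 0.31 on the X chromosome. Xist, the RNA of the inactive X chromosome, was detected on none of the 6 arrays, and Ddx3y, a gene of the Y chromosome, had 269.5 and 261.1 in low iPS against 231.5 and 171.1 in ES.

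Oct4 binds an octamer, and its POU-specific part reads letters shared with the motif TTTGCAT. That motif was searched on both strands in the RefSeq promoter windows of GRCm38.p6, from 250 bases before each gene's start to 50 after it. It was present for 11 of 180 genes that rose and had a window (6.1%), for 14 of 174 that fell (8.0%), and for 362 of all 8411 tested genes with a window (4.3%). For a gene with several windows a match in any of them counted, and its highest number of CG dinucleotides and highest GC content were used. Windows per gene averaged 1.28 for genes that rose, 1.37 for genes that fell and 1.28 for all tested genes. The median number of CG dinucleotides per gene was 16 for genes that rose and 21 for genes that fell, against 22 for all tested genes. The median GC content was 60.0%, 64.3% and 62.0% in the same order. The 6 stretches below are shown because they hold the motif in promoters of genes that changed, 3 that rose and then 3 that fell. They are printed 5′ to 3′ on the strand of the gene, with the motif or its reverse complement ATGCAAA in capitals.
Art3: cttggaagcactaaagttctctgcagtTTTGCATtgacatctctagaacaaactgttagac
Pnpla3: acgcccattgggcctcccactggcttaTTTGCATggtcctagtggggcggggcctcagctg
Clec4a1: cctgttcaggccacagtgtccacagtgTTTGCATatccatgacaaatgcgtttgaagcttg
Pcyt1b: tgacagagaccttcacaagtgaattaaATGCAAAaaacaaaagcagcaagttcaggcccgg
Mcf2l: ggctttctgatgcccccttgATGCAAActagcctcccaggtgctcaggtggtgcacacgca
Foxp1: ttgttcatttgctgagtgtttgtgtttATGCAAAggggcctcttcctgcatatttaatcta
The stretches lie at chr5:92387900-92387960 for Art3, chr15:84167711-84167771 for Pnpla3, chr6:122921670-122921730 for Clec4a1, chrX:93674930-93674990 for Pcyt1b and chr8:12915661-12915721 for Mcf2l, all on the plus strand. That of Foxp1 lies at chr6:99266554-99266614 on the minus strand.

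Art3, of the ADP-ribosyltransferase family, had 402.7 and 486.4 in low iPS, 82.4 and 102.7 in iPS, and 90.8 and 87.1 in ES, and was at least 11-fold higher (limma adjusted p = 0.000772; 4.82-fold with no background correction). The other detected probe of Art3 gave 2.37 on the log2 scale, a smaller rise than that bound. Clec4a1, a C-type lectin receptor of myeloid cells, had 169.3 and 132.5 in low iPS against 86.4 and 86.8 in ES and was at least 2.33-fold higher (limma adjusted p = 0.00977; 1.67-fold with no background correction). Mcf2l, a guanine nucleotide exchange factor, had 169.4 and 154.9 in low iPS against 328.7 and 443.8 in ES and fell by 1.76 ± 0.22 (limma adjusted p = 0.00881). Foxp1, a forkhead transcription factor, had 99.6 and 91.1 in low iPS against 124.6 and 179.0 in ES and was at least 2.31-fold lower (limma adjusted p = 0.0269; 1.58-fold with no background correction, where it did not pass). Genes with the motif thus stood on both sides of the comparison. A match to these letters is a description of the window and does not show that Oct4 binds there.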

How the data were processed

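Total RNA of 6 samples was extracted with RNeasy, amplified and biotin-labelled with TotalPrep-96 per the labels, and hybridised to Illumina bead arrays. Per the file headers, the deposited table holds 45281 probes with 1 intensity and 1 detection p-value for each array, and the intensity values had not been normalised between arrays. The sources used here do not give the array model, scanner software or annotation build. The authors' deposited series matrix holds log2 values of equal column median (8.05), and its probes carry no names here, so it served for counts only. Its centring and background treatment stay unknown. Probes were named from the table through RefSeq (GRCm38.p6): 27743 by symbol, 8042 by synonym, and 9496 under the table's own name, which can be old. Spike and control probes (40) were left out.

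The background correction was that of nec in limma 3.58.1 (R 4.3.3), which read the negative controls through the detection p-values and added 16, and log2 values were quantile normalised over the 6 arrays. The added 16 shrinks changes of dim genes. Kept were 18172 probes whose detection p was under 0.05 on 2 or more arrays, and the brightest kept probe stood for a gene. A gene detected in one line alone entered the test through that line, so counts over tested members are descriptions. A model of 3 line means (lmFit, then eBayes) had 3 residual degrees of freedom and a prior of 4.26. The Benjamini-Hochberg adjustment of its two-sided p-values ran over 12638 genes. Of 179 genes past the threshold with several kept probes, 11 had a probe of opposite sign and 28 one under 0.3 of the size. The steps were tested on simulated data, in 20 runs with 200 changed genes each and noise independent between arrays. Of changes of 1 on the log2 scale 53.4% were recovered, and of changes of 2 98.8%. Of the genes that passed there, 6.2% had not been changed.

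The genes named were drawn from the 15 largest rises and 15 largest falls. Those had arrays that do not overlap, a probe detected on each array of the brighter line and no clone, predicted or accession-like names. Up to 3 members of each list with the smallest p and 8 set genes were added. Some genes of this selection are not described. Genes from outside it, such as AA467197 and the neighbouring genes, were picked once their values were known. The comparison, the 56 lists and the tests were chosen with earlier results of these data known. Counts over lists include a few genes that are not reported here by name. Alternatives changed the background, the normalisation, the filter, the probe rule, the arrays fitted and the replicate block.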

Additional observations from a re-analysis of the deposited data

How the results depend on the processing

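Other backgrounds, normalisations, probe rules, a filter on both arrays of a line and a fit of only the 4 arrays of low iPS and ES gave 273 to 319 genes higher and 220 to 268 lower, against 285 and 241. Without the detection filter 28898 genes were tested and 114 were higher and 77 lower, with 188 of the 526 genes past the threshold again. Leaving out 1 array in turn gave 32 to 301 higher and 23 to 252 lower, the fewest without replicate 2 of low iPS. With the replicate number as a block the counts were 470 and 443; same-numbered samples deviated together across genes, at r = 0.183 between low iPS and ES, 0.298 between low iPS and iPS and 0.323 between iPS and ES. With 2 shared numbers that is a hint from the data, and the labels name no shared batch or day. The series matrix gave 309 and 238 probes, unnamed. Pou5f1 passed under each alternative, at -3.31 to -3.10, and none of the 120 genes followed reversed. The share of the 120 kept was smallest without replicate 2 of low iPS, 29 of 114 tested. The cause of lost calls was not tested. Dim probes limit the precision: 70 genes past the threshold were undetected on both ES arrays and 45 on both low iPS arrays.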
